A study of Mus musculus with 6 samples.

Results

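Electrogenic sodium absorption in the mouse colon was described through 10 genes of the epithelial sodium channel (ENaC), the colonic proton-potassium pump and the targets of aldosterone, out of 18193 genes measured by microarray. The genes were taken by name from a list of the pathway, which was drawn up with earlier results of these data known. Each was read from probe sets annotated to only that gene, and where there were several, from the one with the highest mean over all 6 arrays. All 10 were measured, 7 of them by a single probe set, Fkbp5 by 3, Tsc22d3 by 4 and Nedd4l by 6.

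Total RNA came from the colon of untreated female C57BL/6J mice, an inbred laboratory strain, and no genotype, drug or diet differed between the groups. There were 3 libraries labelled proximal colon and 3 labelled distal colon, and the design text names 3 animals as the source of both regions, without saying which libraries share an animal. The age of the mice is not given in the sources used here. Nothing else says how the samples were taken, so p-values speak only of the spread among the libraries, which may be technical, and the small number of arrays sets the precision.

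In the distal colon, sodium enters surface epithelial cells through ENaC, a channel built from the alpha, beta and gamma subunits Scnn1a, Scnn1b and Scnn1g, and leaves through the basolateral sodium pump. Aldosterone acts on the mineralocorticoid receptor to raise this transport, partly through the kinase Sgk1, which restrains the ubiquitin ligase Nedd4l that removes ENaC from the membrane. Hsd11b2 inactivates glucocorticoids in the same cells, and the pump encoded by Atp12a takes up potassium in exchange for protons.

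A pair of libraries went against their labels, which bears on every comparison below. Hoxb13, a homeobox gene that marks the posterior end of the trunk and gut, had log2 levels of 13.39, 6.53 and 6.48 in the proximal libraries numbered 1, 2 and 3, and of 13.78, 13.29 and 6.65 in the distal libraries numbered 1, 2 and 3. Proximal 1 was thus high like distal 1 and 2, and distal 3 low like proximal 2 and 3. Whether the labels of these libraries were exchanged cannot be told from the files, so a labelled difference holds only for the labels as given. Each result is given for the 6 libraries as labelled and again without proximal 1 and distal 3. The second comparison was chosen after seeing the data and dropped libraries because of their own profiles, which makes its p-values too small. Values are deposited log2 expression after robust multi-array averaging (RMA), differences are distal minus proximal, and a gene passed at a limma adjusted p under 0.05 over all 18193 genes.

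Colonic epithelial markers were high in every library. The mean log2 level of 8 markers of the colonic epithelium lay between 13.76 and 14.1. That of 6 goblet cell markers lay between 13.7 and 14.03, and that of 5 kidney tubule markers between 5.1 and 5.48. Smooth muscle markers, 6 of 6 measured, averaged 13.39 and 13.22 in proximal 2 and 3 and between 13.64 and 13.72 in the other libraries. Pancreatic acinar markers, 7 of 9 measured, averaged 12.53 in proximal 1 and 12.5 in distal 1, against 6.65 to 6.95 in the other libraries. In whole tissue, fewer cells of a type and less RNA per cell cannot be told apart.

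As labelled, 0 of the 10 genes passed, against 0% of all genes. At an unadjusted p under 0.05, limma gave 1 of the 10, Scnn1a, against 3.05% of all genes, and the values of the 3 distal and 3 proximal libraries were separate in 0 of the 10, against 7.33% of all genes. Without proximal 1 and distal 3, 7 of the 10 passed, against 19.2% of all genes. Of these, 5 were higher in distal libraries, namely Fxyd4, Atp12a and the 3 ENaC subunits, against 7.71% of all genes in that direction. Sgk1 and Fkbp5 were higher in proximal libraries, against 11.5% of all genes, and Hsd11b2, Nedd4l and Tsc22d3 did not pass. The median size of the difference, without regard to sign, was 0.92 over the 10 genes and 0.23 over all genes.

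**Figure D1:**
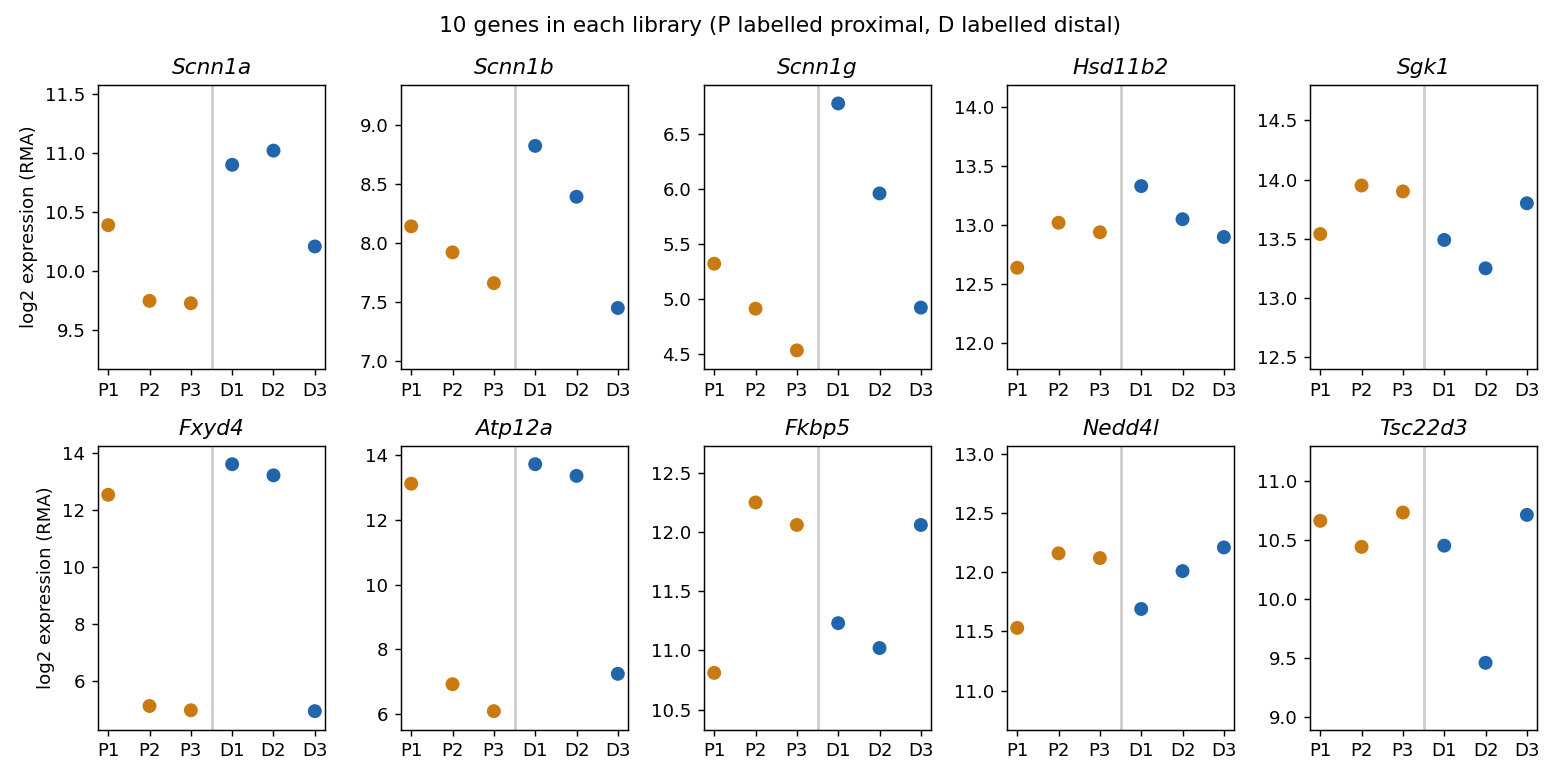
Log2 expression of each of the 10 genes (vertical axis, RMA values, with a range of its own in each panel) in the libraries labelled proximal 1 to 3 (P1 to P3, orange) and distal 1 to 3 (D1 to D3, blue), 1 point per library. Fxyd4 and Atp12a are above 12 in P1, D1 and D2 and below 8 in the others, while Hsd11b2 stays between 12.64 and 13.33.

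The alpha subunit of ENaC, Scnn1a, which lies on chromosome 6, measured 10.39, 9.75 and 9.73 in proximal 1, 2 and 3, and 10.90, 11.02 and 10.21 in distal 1, 2 and 3. The highest values were those of distal 1 and 2, and distal 3 fell inside the proximal range, so the labelled groups overlapped. The means were 9.96 ± 0.38 (SD, n = 3) in proximal and 10.71 ± 0.44 (SD, n = 3) in distal libraries, which differ by 0.75 (SE 0.28, limma adjusted p = 0.824). In the 4 libraries left without proximal 1 and distal 3, the difference was 1.22 (SE 0.11, limma adjusted p = 0.003), or 2.33-fold.

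The beta subunit, Scnn1b, measured 8.14, 7.92 and 7.66 in proximal 1, 2 and 3, and 8.82, 8.39 and 7.45 in distal 1, 2 and 3. Distal 3 held the lowest value of all 6 libraries and distal 1 the highest. The labelled difference was 0.31 (SE 0.35, limma adjusted p = 0.838), and without proximal 1 and distal 3 it was 0.82 (SE 0.18, limma adjusted p = 0.0373), or 1.76-fold.

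The gamma subunit, Scnn1g, measured 5.32, 4.91 and 4.53 in proximal 1, 2 and 3, and 6.78, 5.96 and 4.92 in distal 1, 2 and 3. Distal 1 and 2 were again the highest, and they differed from each other by more than proximal 2 did from proximal 3. The labelled difference was 0.97 (SE 0.47, limma adjusted p = 0.824), and without proximal 1 and distal 3 it was 1.65 (SE 0.29, limma adjusted p = 0.0201), or 3.14-fold. Of the 6 values of Scnn1g, only that of distal 1 lay above 6.54, the lower quartile over all genes and libraries, and signal under that level may be mostly background. The calls of Scnn1b and Scnn1g were lost when any 1 of the 4 libraries was left out, with adjusted p from 0.0779 to 0.32 for Scnn1b and from 0.0654 to 0.234 for Scnn1g. That of Scnn1a was lost without proximal 2 (adjusted p = 0.0923) or proximal 3 (adjusted p = 0.102). With 1 of the 6 labelled libraries left out, the labelled difference of Scnn1b ran from 0.01 without distal 1 to 0.70 without distal 3, and that of Scnn1g from 0.52 to 1.45 without the same libraries. That of Scnn1a ran from 0.60 without distal 2 to 1.00 without distal 3.

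Scnn1g and Scnn1b lie on chromosome 7 in the RefSeq annotation of GRCm38.p6, transcribed in the same direction, with 96555 bases between the end of the first and the start of the second. The annotation places a long noncoding RNA gene, Gm36848, in that interval, overlapping the end of Scnn1g. Windows of 250 bases before a transcript start listed by RefSeq were read for Scnn1g, Scnn1b and Fxyd4. That of Scnn1b ends where the annotated gene begins, the last 59 bases of that of Scnn1g lie within the annotated gene, and that of Fxyd4 lies wholly within it. The stretches outside the gene are shown for the beta and gamma subunits, because both were higher in distal 1 and 2, written 5′ to 3′ on the gene's strand.
Scnn1g, chr7:121734229-121734419, plus strand: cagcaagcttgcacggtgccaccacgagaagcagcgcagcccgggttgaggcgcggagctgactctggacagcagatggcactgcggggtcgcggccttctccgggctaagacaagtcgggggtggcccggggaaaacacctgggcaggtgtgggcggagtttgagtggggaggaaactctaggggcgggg
Scnn1b, chr7:121864788-121865037, plus strand: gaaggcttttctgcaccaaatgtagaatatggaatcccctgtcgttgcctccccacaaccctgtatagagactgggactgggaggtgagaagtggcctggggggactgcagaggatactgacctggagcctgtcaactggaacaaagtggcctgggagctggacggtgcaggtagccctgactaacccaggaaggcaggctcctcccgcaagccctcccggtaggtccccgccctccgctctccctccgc
The palindrome searched was GNACA followed, after any 3 bases, by TGTNC, and the single arm was AGAACA, each on both strands, and the arm can overlap the palindrome. Neither is present in the 3 windows of 250 bases, which says only that these letters are not there. Among 32851 windows of the same length before listed transcript starts, 0.39% hold the palindrome and 16.08% the arm.

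Fxyd4, a small membrane protein of the FXYD family that raises the sodium affinity of the sodium pump and is also called corticosteroid hormone-induced factor, had the widest range of the 10 genes. It measured 12.53, 5.14 and 4.99 in proximal 1, 2 and 3, and 13.60, 13.21 and 4.96 in distal 1, 2 and 3. Proximal 1, distal 1 and distal 2 were high and the other libraries low, with no value between. As labelled the means were 7.55 ± 4.31 (SD, n = 3) and 10.59 ± 4.88 (SD, n = 3), a difference of 3.04 (SE 2.99, limma adjusted p = 0.826), which ran from 1.53 without distal 1 to 5.85 without distal 3. In the 4 libraries it was 8.34 (SE 0.16, limma adjusted p = 9.86e-05), or 324-fold. The low values lie under that lower quartile, so this fold is at best a lower bound.

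Atp12a, the catalytic subunit of the colonic proton-potassium pump, measured 13.11, 6.93 and 6.10 in proximal 1, 2 and 3, and 13.71, 13.35 and 7.25 in distal 1, 2 and 3. The same libraries were high as for Fxyd4. The labelled difference was 2.72 (SE 2.42, limma adjusted p = 0.824), with 1.42 left without proximal 3 and 4.92 without proximal 1, and without proximal 1 and distal 3 it was 7.02 (SE 0.30, limma adjusted p = 0.000373), or 129-fold. The value of proximal 3 lies under the same lower quartile, so this fold is likewise at best a lower bound. With distal 2 left out as well, the difference was 7.2 and the adjusted p = 0.0543. Both genes were high in distal 2, where pancreatic acinar markers averaged 6.72, as they were in proximal 1 and distal 1, where those markers averaged 12.53 and 12.5. For Scnn1b and Scnn1g the highest value was in distal 1, and the other library with high acinar markers, proximal 1, was below distal 2. The part of acinar cells in the values of Fxyd4, Atp12a and the ENaC subunits was not tested.

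The library labelled proximal 1 stood close to the distal libraries for some of these genes and midway for others. On a scale where 0 is the mean of proximal 2 and 3 and 1 the mean of distal 1 and 2, proximal 1 stood at 0.90 for Fxyd4 and 0.94 for Atp12a, and Hoxb13 stood at 0.98. The ENaC subunits stood lower, at 0.53 for Scnn1a, 0.43 for Scnn1b and 0.36 for Scnn1g. Over the 3494 genes that passed without proximal 1 and distal 3, the median position of proximal 1 was 0.76. Distal 3 stood at -0.01 for Fxyd4, 0.10 for Atp12a, 0.39 for Scnn1a, -0.42 for Scnn1b and 0.12 for Scnn1g, beside a median of 0.13. These positions rest on 1 library each and were not tested.

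**Figure D2:**
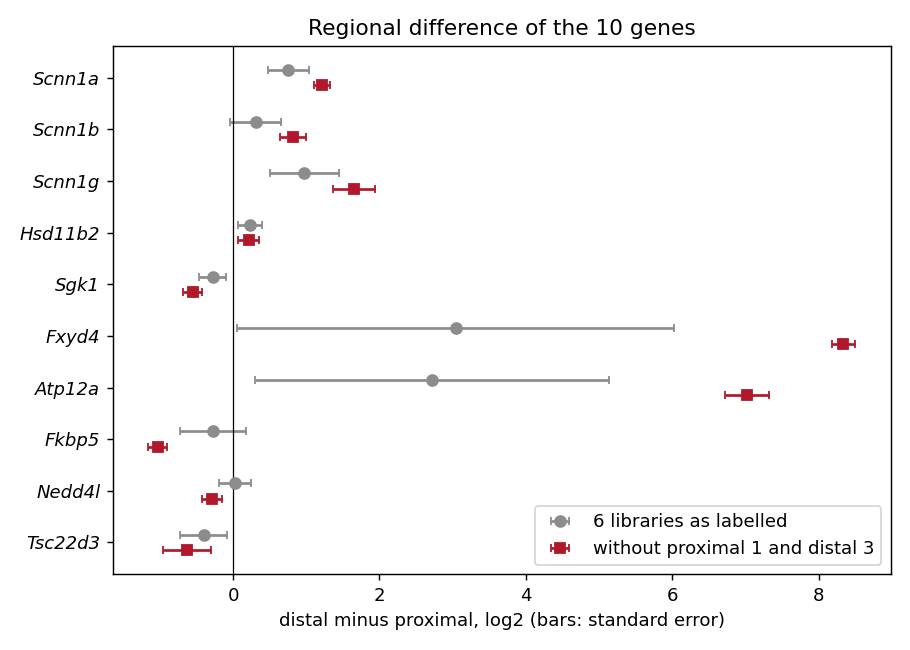
Difference between distal and proximal libraries for each gene (horizontal axis, log2, with standard error bars), for the 6 libraries as labelled (grey circles) and without proximal 1 and distal 3 (red squares). Fxyd4 and Atp12a move from 3.04 and 2.72 with wide bars to 8.34 and 7.02 with narrow ones, and Hsd11b2 stays at 0.23 and 0.21.

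Hsd11b2, the enzyme that converts active glucocorticoids to inactive forms and so leaves the mineralocorticoid receptor to aldosterone, was at a high level in every library. It measured 12.64, 13.02 and 12.94 in proximal 1, 2 and 3, and 13.33, 13.05 and 12.90 in distal 1, 2 and 3. Proximal 1 was the lowest and distal 1 the highest. The labelled means were 12.87 ± 0.20 (SD, n = 3) and 13.09 ± 0.22 (SD, n = 3), a difference of 0.23 (SE 0.16, limma adjusted p = 0.824), which was 0.11 without proximal 1 or distal 1 and 0.32 without distal 3. Over the 4 libraries the difference was 0.21 (SE 0.14, limma adjusted p = 0.338).

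Sgk1, the serum and glucocorticoid regulated kinase, measured 13.54, 13.95 and 13.90 in proximal 1, 2 and 3, and 13.49, 13.25 and 13.80 in distal 1, 2 and 3. Proximal 2, proximal 3 and distal 3 held the highest values, so the order ran opposite to that of the ENaC subunits. The labelled difference was -0.28 (SE 0.18, limma adjusted p = 0.824), from -0.43 without distal 3 to -0.15 without distal 2. The difference over the 4 libraries was -0.55 (SE 0.13, limma adjusted p = 0.0381), or 1.47-fold higher in proximal libraries. This call was lost when the arrays were centred on their medians (difference -0.46, adjusted p = 0.0733), and when any 1 of the 4 libraries was left out (adjusted p from 0.0501 to 0.298).

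RefSeq lists 6 transcript starts for Sgk1 on chromosome 10, and the palindrome was found in the 250 bases before 1 of them, a window that lies within the annotated gene. The palindrome is shown in capitals with the bases around it.
Sgk1, chr10:21993694-21993722, plus strand: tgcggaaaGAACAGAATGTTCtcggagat
The palindrome reads GAACAGAATGTTC and spans bases 188 to 176 before that start. It was absent from the other 5 windows of Sgk1, and from the windows read for Fkbp5 and Tsc22d3. Of the 3 windows of Tsc22d3, 1 holds a single arm. Sgk1 has single arms too, at bases 195 to 190 and 13 to 8 before other starts. In its window with the palindrome, an arm spans bases 242 to 237, and further arms overlap the palindrome. A match is a description of the letters and was not tied to the levels here.

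Fkbp5, a co-chaperone of the glucocorticoid receptor whose transcription glucocorticoids induce, measured 10.81, 12.25 and 12.06 in proximal 1, 2 and 3, and 11.23, 11.02 and 12.06 in distal 1, 2 and 3. Proximal 2, proximal 3 and distal 3 were high, and the other libraries were low, with proximal 1 the lowest. The labelled difference was -0.27 (SE 0.45, limma adjusted p = 0.874), from -0.72 without proximal 1 to 0 without proximal 2. Over the 4 libraries it was -1.03 (SE 0.13, limma adjusted p = 0.00835), or 2.04-fold higher in proximal libraries, and this call was lost when any 1 of the 4 libraries was left out (adjusted p from 0.0515 to 0.146). A second probe set of Fkbp5 gave 7.60, 9.26 and 8.96 in proximal 1, 2 and 3, and 7.51, 7.66 and 9.01 in distal 1, 2 and 3, the same libraries being high. Its difference in the 4 libraries was -1.52 (SE 0.15, limma adjusted p = 0.00353 over 34945 probe sets). The third probe set stayed between 3.89 and 4.28, near the bottom of the table, with a difference of 0.05.

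Tsc22d3, the glucocorticoid-induced leucine zipper, measured 10.66, 10.44 and 10.73 in proximal 1, 2 and 3, and 10.45, 9.46 and 10.71 in distal 1, 2 and 3. Distal 2 alone was low, and the other 5 libraries lay within 10.44 to 10.73. The difference was -0.40 (SE 0.32, limma adjusted p = 0.824) as labelled and -0.63 (SE 0.33, limma adjusted p = 0.246) without proximal 1 and distal 3. Without distal 2 the labelled difference was -0.03. A second probe set was also lowest in distal 2, at 8.42 against 9.11 to 9.34 elsewhere. The other 2 probe sets stayed within 7.89 to 8.03 and within 4.29 to 4.47.

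Nedd4l, the ubiquitin ligase that binds ENaC, gave different orders of the libraries in its 6 probe sets. The brightest measured 11.53, 12.16 and 12.12 in proximal 1, 2 and 3, and 11.69, 12.01 and 12.21 in distal 1, 2 and 3, with proximal 1 and distal 1 the lowest. Its difference was 0.03 (SE 0.22, limma adjusted p = 0.971) as labelled and -0.29 (SE 0.14, limma adjusted p = 0.217) without proximal 1 and distal 3. The labelled value turned sign with the library left out, from -0.17 without proximal 1 to 0.17 without distal 1. Another probe set measured 9.61, 9.61 and 9.79 in proximal 1, 2 and 3, and 10.20, 10.44 and 9.86 in distal 1, 2 and 3, so that all 3 libraries labelled distal were above all 3 labelled proximal. Its difference was 0.50 as labelled (limma adjusted p = 0.786) and 0.62 (SE 0.14, limma adjusted p = 0.0322 over 34945 probe sets) in the 4 libraries.

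In all, 3 of the 6 probe sets of Nedd4l had every distal value above every proximal value with the labels as given, against 3.06% of 34945 probe sets. The second of them measured 10.03, 10.34 and 10.39 in proximal 1, 2 and 3, and 10.45, 10.85 and 10.49 in distal 1, 2 and 3. The third measured 7.42, 7.10 and 7.14, and then 7.46, 7.95 and 7.67. These probe sets read 1 gene and are not independent, they were singled out after their values were seen, and none passed as labelled. Over the 4 libraries, 4 probe sets lay above 0 and 2 below, from -0.51 to 0.62. Which transcripts each probe set reads was not tested.

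**Figure D3:**
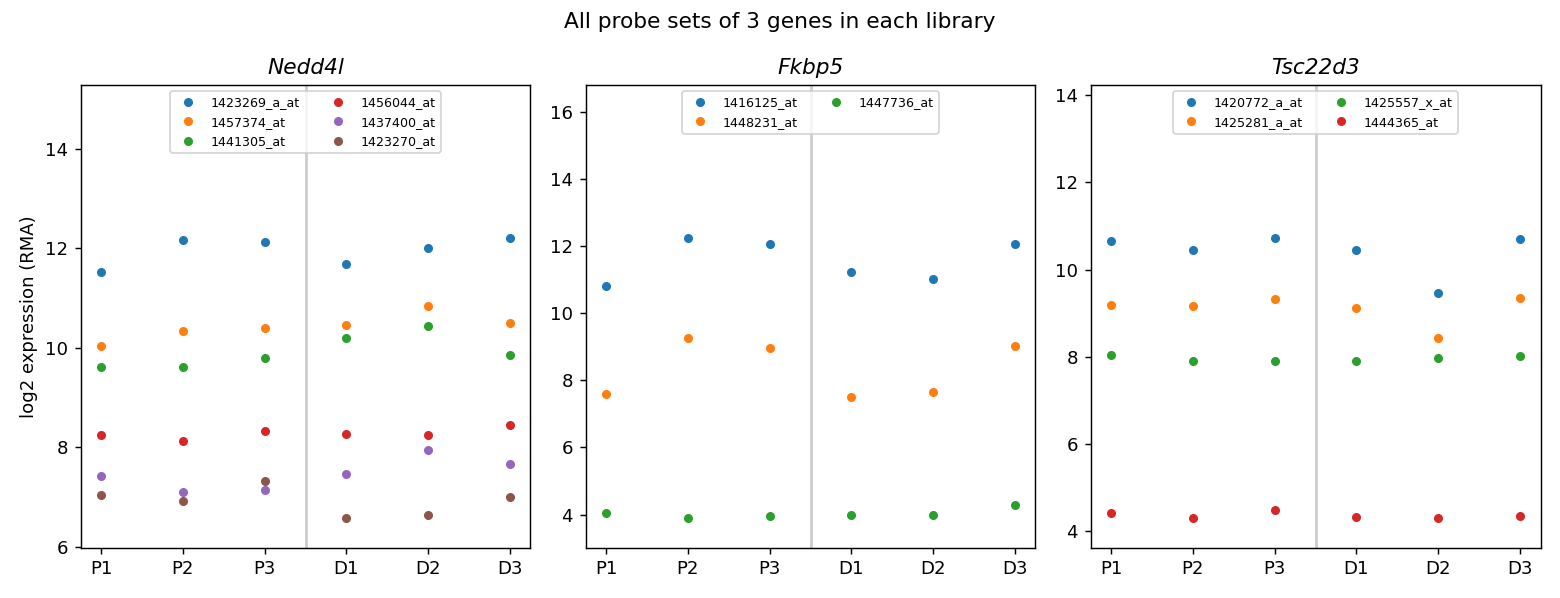
Log2 expression of every probe set of Nedd4l, Fkbp5 and Tsc22d3 (vertical axis, RMA values, 1 colour per probe set) in the libraries labelled proximal 1 to 3 (P1 to P3) and distal 1 to 3 (D1 to D3). The 2 brighter probe sets of Fkbp5 are high in P2, P3 and D3, the 2 brighter ones of Tsc22d3 are lowest in D2, and those of Nedd4l differ among themselves.

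The other genes of the pathway were followed through 7 lists with 82 entries, of which 75 were measured. As labelled 0 of the 75 passed. Without proximal 1 and distal 3, the libraries of the distal pair were higher for 6 genes and those of the proximal pair for 9, together 20% against 19.2% of all genes, so the lists passed at about the background share. These calls rest on all 4 libraries: 0 of the 75 passed without proximal 2 or without proximal 3, 2 without distal 2 and 9 without distal 1. Their median difference was -0.08, beside -0.045 over all genes. The values that follow are from these 4 libraries. A gene is called higher or lower where its limma adjusted p was under the threshold. Counts by list stand beside 7.71% of all genes higher and 11.5% lower in distal libraries. By list, from 8.33% to 40% of the measured genes passed, on 5 to 19 genes each. As labelled, every gene that passed here had a smaller difference, such as -1.1 for Pdk4, 0.58 for Cyp11a1 and 0.40 for Fxyd6.

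Among receptors and steroid enzymes, Nr3c2, the mineralocorticoid receptor, measured 12.17 and 12.18 in proximal 2 and 3 and 12.51 and 12.37 in distal 1 and 2, a difference of 0.27 (SE 0.11, limma adjusted p = 0.16). Nr3c1, the glucocorticoid receptor, differed by -0.35 (SE 0.10, limma adjusted p = 0.0748). Of 8 measured genes 1 was higher in each direction. Cyp11a1, which starts steroid synthesis from cholesterol, was higher in distal libraries (1.39, SE 0.20), with 7.14 and 7.15 in proximal 2 and 3 and 8.82 and 8.25 in distal 1 and 2. Hsd11b1, which regenerates active glucocorticoid and so works against Hsd11b2, was lower in distal libraries (-0.99, SE 0.14), with 9.70 and 9.77 in proximal 2 and 3 and 8.89 and 8.60 in distal 1 and 2.

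Among kinases and the ubiquitin machinery, 4 of 19 were lower in distal libraries and 0 were higher, 21.1% beside 19.2% of all genes. They were Prkaa1, a catalytic subunit of the energy-sensing kinase AMPK (-1.51, SE 0.17), Sgk2 (-1.03, SE 0.12), Rab11a, a small GTPase of recycling vesicles (-0.71, SE 0.17), and Sgk3 (-0.42, SE 0.11, limma adjusted p = 0.0499). With Sgk1, all 3 kinases of the SGK family were thus lower in distal libraries, but after median centring only Sgk2 of the 3 passed (-0.94, limma adjusted p = 0.00676), beside -0.46 for Sgk1 and -0.34 for Sgk3 (limma adjusted p = 0.104). Rab11a was at -0.62 after that centring (limma adjusted p = 0.0662). As labelled their differences were -0.28 for Sgk1, -0.22 for Sgk2 and -0.32 for Sgk3, and none passed. Sgk2 measured 11.57, 13.10 and 13.08 in proximal 1, 2 and 3, and 11.96, 12.16 and 12.96 in distal 1, 2 and 3, with proximal 1 the lowest, as for Fkbp5.

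Among proteases that cleave ENaC and their inhibitors, 1 of 9 was higher in distal libraries, Tmprss2, a serine protease (0.55, SE 0.11). Prss8, the channel-activating protease prostasin, differed by -0.08 (SE 0.13, limma adjusted p = 0.735). St14, known as matriptase, differed by -0.16 (SE 0.10, limma adjusted p = 0.353).

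Among sodium pump subunits and FXYD proteins, 2 of 9 were higher in distal libraries, Fxyd6 (1.11, SE 0.13) and Fxyd7 (0.54, SE 0.12). Fxyd6 measured 11.16, 9.87 and 9.71 in proximal 1, 2 and 3, and 11.0, 10.8 and 10.14 in distal 1, 2 and 3. The other FXYD genes measured, Fxyd1, Fxyd2, Fxyd3 and Fxyd5, differed by between -0.32 and 0.14 and did not pass. Atp1b1, the main beta subunit of the epithelial sodium pump, had a difference of 0.13 (SE 0.11, limma adjusted p = 0.464).

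Among genes of potassium secretion and the gastric proton pump, 1 of 12 was higher in distal libraries, Kcnn4, a calcium-activated potassium channel (0.66, SE 0.11). Kcnma1, the large conductance potassium channel of aldosterone-regulated secretion, differed by 0.43 (SE 0.12, limma adjusted p = 0.0639). Atp4a, the gastric relative of Atp12a, stayed between 4.64 and 5.45 in the 6 libraries, under the lower quartile named above, with a difference of -0.24 (SE 0.22, limma adjusted p = 0.502). Among acid-sensing ion channels, which belong to the same gene family as ENaC, Asic5 (-0.95, SE 0.14) and Asic3 (-0.52, SE 0.12) of 5 were lower in distal libraries, Asic3 missing the threshold after median centring (-0.43, limma adjusted p = 0.0604) and quantile normalization (-0.48, limma adjusted p = 0.0718). All 6 values of Asic3, from 5.66 to 6.38, and those of Asic5 in distal 1 and 2, at 6.06 and 5.84, lay under the lower quartile.

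Among genes that glucocorticoids induce, 1 of 13 was higher and 2 were lower in distal libraries. Ndrg2, an early aldosterone target in kidney, was higher (0.81, SE 0.10), and Pdk4, a kinase of pyruvate dehydrogenase (-2.66, SE 0.15), and Angptl4, an inhibitor of lipoprotein lipase (-1.30, SE 0.17), were lower. Per1 differed by 0.17 (SE 0.13, limma adjusted p = 0.432) and Zbtb16 by 0.77 (SE 0.28, limma adjusted p = 0.122). Of the 15 list genes that passed, proximal 1 was closer to the distal pair for 12 and distal 3 closer to the proximal pair for 15. Over all 3494 genes that passed, the median positions of proximal 1 and distal 3 were 0.76 and 0.13. Both libraries were left out because of such profiles, so these counts are not particular to the lists.

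**Figure D4:**
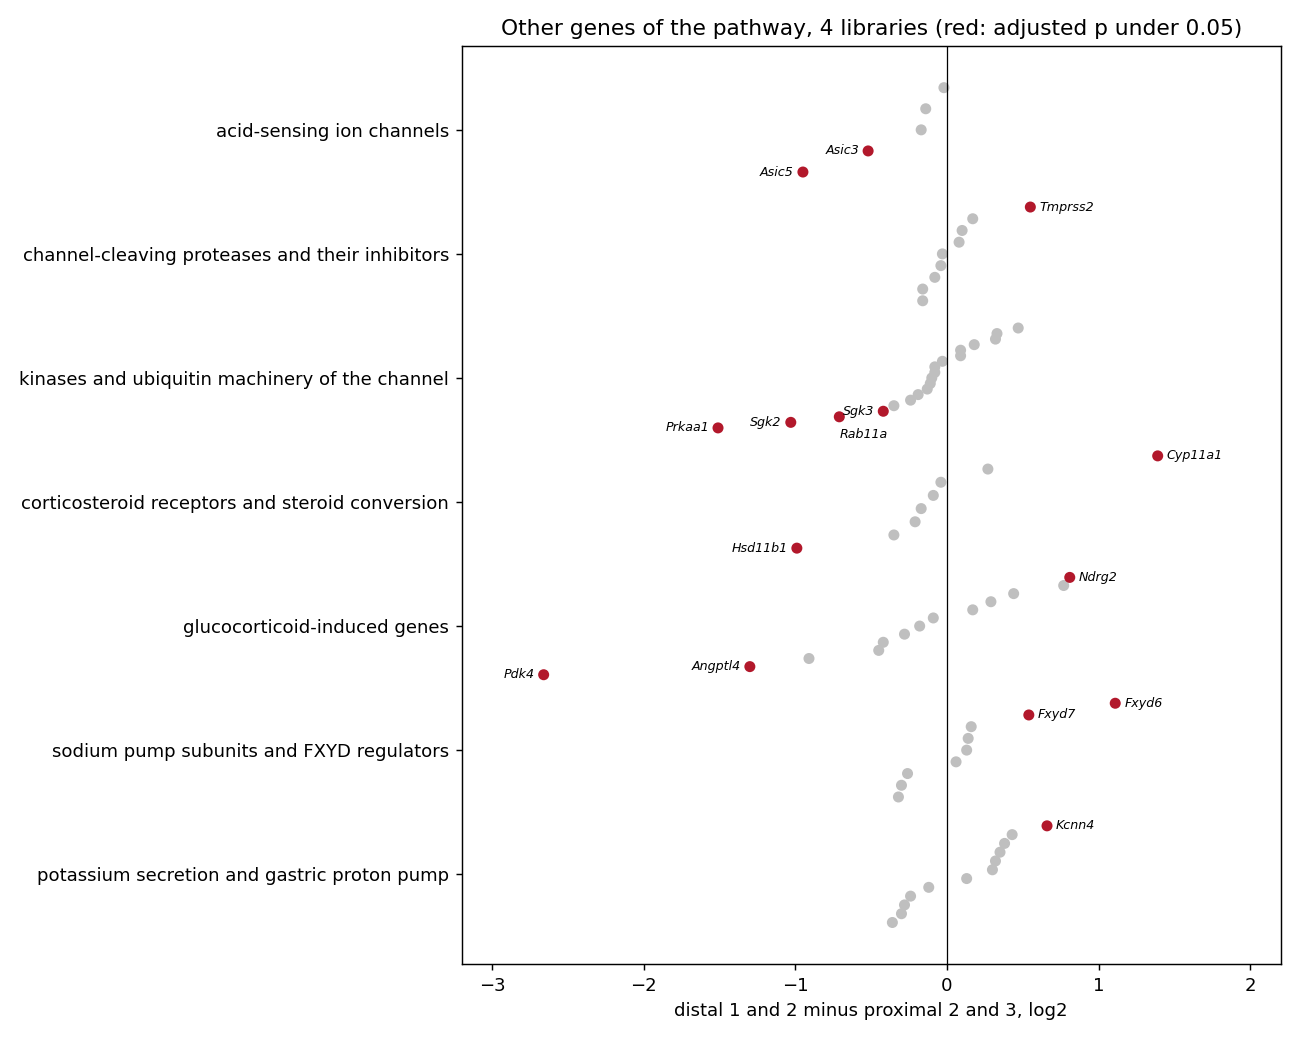
Difference between distal 1 and 2 and proximal 2 and 3 (horizontal axis, log2) for the 75 measured genes of 7 lists, 1 point per gene ordered by value within its list. Genes with a limma adjusted p under 0.05 are red and named, 6 to the right and 9 to the left of 0.

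The genes whose values over the 6 libraries were most like those of a member were found by Pearson's r, which here mostly measures the split of the libraries between high and low. For Fxyd4 they were Tgm3, Casp14 and Sytl1 (r = 0.999 each), and 98 genes had r above 0.99. For Atp12a they were Adamts15, Cadps2 and Alb (r = 0.998 each), with 69 genes above 0.99. For Scnn1b they were Tmed8 (0.995), Nr1h3 (0.993) and Rps15a-ps6 (0.99), and for Scnn1g Ces2f (0.994), Srrm1 (0.991) and 1700128F08Rik (0.989), with 2 genes above 0.99 in each case. Whether these counts differ beyond chance was not tested.

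Some cell type markers also passed in the 4 libraries, where 19.2% of all genes passed, and as labelled 0 did. The share was 60% of the 5 leukocyte markers and 50% of the 8 markers of the colonic epithelium, and from 0% to 16.7% in each other list. Of the 8 markers of the colonic epithelium, Krt20 (-0.49), Car1 (-0.54) and Cdx2 (-0.88) were lower and Car4 (0.60) higher in distal libraries. Of 6 goblet cell markers Clca1 (0.62) and of 7 squamous epithelial markers Krt14 (0.41) were higher. The call of Krt14 was close to the threshold (limma adjusted p = 0.0484), and its values in proximal 2 and 3, 6.31 and 6.36, lay under the lower quartile. Of 6 smooth muscle markers Des (0.62) was higher, and of 5 leukocyte markers Cd79a of B cells (1.46) was higher and Cd3e of T cells (-1.33) and Cd68 of macrophages (-0.88) were lower. Of 7 acinar markers Cela1 (1.74) was higher. The other 6 had larger differences, from 2.21 to 3.34, but did not pass. They lay between 11.68 and 12.49 in distal 1 and between 4.26 and 7.67 in distal 2, so distal 1 alone carried those differences. Of 5 enteric neuron and glia, 4 adipocyte and 5 kidney tubule markers, 0 passed. The part of these cells in the differences of the 10 genes was not tested.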

How the data were processed

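The deposited log2 values were made by the authors with RMA in Partek 6.5, per the submitters' processing notes. Its background setting is not given in the sources used here. Detection calls were not used. RNA was amplified with NuGEN Ovation kits, per the labels' protocols. Because RMA equalises the arrays' distributions, a change common to most genes would be lost. Array medians lay between 7.9 and 8.02.

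Of 45101 probe sets, 64 controls, 932 with several genes and 9160 with none listed were left out. Symbols were updated by gene identifier for 34741 of the other 34945, from RefSeq tables of GRCm38.p6, which also gave positions and promoters (6 of the 10 genes matched). Titles gave each library its tissue. The comparison of distal with proximal used limma 3.58.1 under R 4.3.3 (lmFit, eBayes, two-sided, Benjamini-Hochberg), without a block. The calculation was tested on simulated data with the spread of proximal 2 and 3 and of distal 1 and 2. That spread lacks the split within the labelled groups, so the simulation cannot speak for the labelled comparison.

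The 10 genes and the lists were chosen with earlier results of these data known. Named are all 10 genes, Hoxb13, list genes past the threshold, receptors and catalytic subunits, and the 3 genes most like each of 4 members. Genes given with a difference that did not pass, and the marker genes, were chosen after their values were seen. Alternatives were the replicate number as a block, quantile normalization, median centring, a filter on low means, the mean of probe sets, single probe sets, a trended robust prior, array weights, a threshold of 0.01 and leaving out each library.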

Additional observations from a re-analysis of the deposited data

How the results depend on the processing

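As labelled, the count of genes past the threshold stayed at 0, for all genes, the 10 genes and the 75 list genes, under each alternative tried and without each library in turn (0 to 0), with exceptions under array weights, which gave 5579 genes, 7 of the 10 and 23 of the 75. Without proximal 1 and distal 3 the counts were 3494, 7 and 15. The cause of the gap between these counts was not tested. With the replicate number as a block, 0 genes passed, and the labelled difference of Fxyd4 was 3.04 (limma adjusted p = 0.721). Deviations from the group means correlated at 0.677, -0.448 and 0.678 between same-numbered libraries. With distal 1, 2 and 3, proximal 1 correlated at 0.677, 0.442 and -0.767, and proximal 2 at -0.616, -0.448 and 0.728. Because proximal 1 and distal 3 went against their labels, these signs can follow that split, and they cannot show pairs. The numbers were not taken as pairs, since the design text does not say which libraries share an animal.

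Nedd4l reversed to -0.35 with array weights and -0.29 without proximal 1 and distal 3, and its dimmest probe set gave -0.36 as labelled. Leaving out 1 library gave -0.17 to 0.17 for Nedd4l and -0.72 to 0 for Fkbp5. As labelled, the dimmest probe set of Fkbp5 gave 0.11 and 1 of Tsc22d3 gave 0.03. In the 4 libraries, reversed values were 0.12 for the mean of the probe sets of Nedd4l, 0.28, 0.62, 0.02 and 0.58 for 4 of its probe sets, 0.05 for the dimmest of Fkbp5 and 0.05 for 1 of Tsc22d3.

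In the 4 libraries, leaving out 1 more gave 146 to 1633 genes, 2 to 3 of the 10 and 0 to 9 of the 75, on 1 residual degree of freedom, so a library left alone in its group was assumed to have the spread of the other group. Fxyd4 passed in each of these fits. At a threshold of 0.01 there were 1112 genes and 4 of the 10. The filter on low means left 7 of the 10 to test, of which 4 passed, since Scnn1b, Scnn1g and Fxyd4 fell below it. The trended robust prior gave 24 of the 75. The split of called genes was 1402 higher in distal and 2092 in proximal libraries, 1733 and 1717 after quantile normalization, and 1883 and 1557 after median centring. The median difference over all genes moved from -0.045 to 0.007 and 0.045.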

Other observations

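The low value of Tsc22d3 in distal 2 stood beside low values of some, not all, other genes that glucocorticoids induce. This pattern was noticed after the values were seen. Of 13 such genes, 8 had their lowest value of the 6 libraries in distal 2, namely Dusp1, Errfi1, Cebpd, Nfkbia, Angptl4, Pdk4, Mt1 and Mt2, where 28.2% of all 18193 genes were lowest in that library. Mt2, a metallothionein, measured 13.04, 12.72 and 12.82 in proximal 1, 2 and 3, and 12.25, 11.47 and 12.59 in distal 1, 2 and 3. Cebpd, a transcription factor, measured 10.81, 10.09 and 9.88, and then 10.28, 9.51 and 10.22. Fkbp5 (11.02) was not lowest in distal 2 but in proximal 1 (10.81), while Sgk1 (13.25) was lowest in distal 2. Of the 13 genes, Ddit4 was lowest in proximal 2, and Per1, Zbtb16, Klf9 and Ndrg2 were lowest in proximal 3. Ndrg2 was highest in distal 2 (12.98). Some of the 8 were lowest by little, Nfkbia at 13.47 beside 13.52 in distal 1 and Errfi1 at 13.30 beside 13.37. The count of 8 describes 1 library and was not tested.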
